A study of Mus musculus with 23 samples.

Results

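The 33 genes described here belong to the unfolded protein response (UPR) and the integrated stress response (ISR), the programmes by which a cell answers misfolded protein in the endoplasmic reticulum (ER) and shortage of amino acids. They were chosen by name as genes of these programmes, with earlier results of these data known, from a table of 55401 genes. All 33 passed the filter on low counts that left 18083 genes. By role they comprise 7 ISR factors and targets, 4 serine and one-carbon enzymes, 15 ER chaperones and folding enzymes, 3 genes of ER-associated degradation, and 4 genes for the ER sensors and the transcription factor Xbp1. RNA-seq was run on primary mouse macrophages grown from bone marrow, either wild-type or labelled Selenow knock-out (KO below). Selenow encodes selenoprotein W, a small redox protein with selenocysteine. Lipopolysaccharide (LPS), the cell wall lipid of Gram-negative bacteria that activates the receptor TLR4, was applied at 100 ng/ml. Cells were taken before it (0 h, untreated) and 4, 8 and 24 h after. Each of the 8 groups of genotype and time had 3 libraries, except KO at 24 h with 2, and libraries are named by their running numbers from 1 to 23. Strain, age and the deleted part of Selenow are not given in the sources used here. Nothing in the labels states that libraries of a group are separate mice or dishes, so p-values measure only the spread between libraries, which may be technical. Every untreated library is from 0 h, so LPS and time in culture cannot be told apart.

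The ER membrane carries the sensors PERK (gene Eif2ak3), IRE1 (Ern1) and ATF6 (Atf6). PERK phosphorylates the translation factor eIF2, as do kinases that sense amino acid shortage or double-stranded RNA, which slows protein synthesis while favouring translation of Atf4 mRNA. ATF4 protein then induces Ddit3 (the transcription factor CHOP), Trib3, Chac1, Sesn2 and amino acid enzymes. IRE1 splices Xbp1 mRNA, and spliced XBP1 and cleaved ATF6 induce chaperones such as Hspa5 (BiP) and the machinery that retrieves and degrades misfolded proteins. In macrophages, signals from Toll-like receptors are known to engage parts of these programmes selectively. Counts per gene report neither Xbp1 splicing nor eIF2 phosphorylation nor ATF6 cleavage.

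Promoter windows are shown first because part of the chaperone group and part of the ISR group hold matches to different motifs there. RefSeq windows (GRCm38.p6, from 250 bases before to 50 after a gene's start site, 300 bases) were matched for 30 members. Hyou1, Manf and Atf6 had no entry. The ER stress response element (ERSE, which reads CCAAT, any 9 bases, CCACG, and is a site for ATF6 with the factor NF-Y) was searched on both strands. It was in the windows of 7 members, all 7 among the 13 chaperones and folding enzymes with a window, against 39 of all 32851 windows (0.119%). Below, 10 bases on either side are included, sequences run 5′ to 3′ on the strand of the motif, and capitals mark the fixed letters of the motif.
Hspa5, chr2:34772015-34772053, plus strand: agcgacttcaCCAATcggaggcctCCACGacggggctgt
Hsp90b1, chr10:86705628-86705666, minus strand: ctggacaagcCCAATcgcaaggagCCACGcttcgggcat
Hsp90b1, chr10:86705523-86705561, plus strand: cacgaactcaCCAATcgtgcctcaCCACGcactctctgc
Calr, chr8:84847065-84847103, plus strand: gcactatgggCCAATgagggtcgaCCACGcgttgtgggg
Canx, chr11:50325790-50325828, minus strand: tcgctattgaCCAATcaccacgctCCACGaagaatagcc
Pdia6, chr12:17266481-17266519, plus strand: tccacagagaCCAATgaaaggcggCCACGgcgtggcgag
Dnajc3, chr14:118937817-118937855, plus strand: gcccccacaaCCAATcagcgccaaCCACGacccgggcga
Creld2, chr15:88819510-88819548, minus strand: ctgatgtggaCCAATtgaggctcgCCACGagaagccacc
A shorter form, ERSE-II (ATTGG, any base, CCACG), was found in 2 members against 0.0365% of all windows.
Dnajb11, chr16:22857842-22857872, plus strand: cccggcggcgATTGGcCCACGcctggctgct
Herpud1, chr8:94386367-94386397, plus strand: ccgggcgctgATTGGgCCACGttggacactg
The element for ATF4 with C/EBP factors (CARE, TGATGNAA) was in 4 members, 3 of them among the 7 ISR factors and targets, against 3.97% of all windows.
Trib3, chr2:152344029-152344056, plus strand: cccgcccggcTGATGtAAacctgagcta
Asns, chr6:7693215-7693242, minus strand: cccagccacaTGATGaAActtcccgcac
Chac1, chr2:119351039-119351066, minus strand: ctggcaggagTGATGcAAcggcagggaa
Herpud1, chr8:94386307-94386334, minus strand: gggtgcgggcTGATGcAAcccgccgtgg
The XBP1 element written as TGACGTGG (UPRE) was in the windows of none of the 30 members, against 0.676% of all windows. In members, no match overlapped a match to another of these motifs, and Herpud1 held both ERSE-II and CARE. A match is a run of letters in this window and was not tested as a site. A relation of the matches to the response to LPS was not tested. The whole window is given for Hspa5, the member with an ERSE and the largest change with LPS, at chr2:34771840-34772139 on the plus strand, again with the ERSE letters in capitals.
Hspa5 window: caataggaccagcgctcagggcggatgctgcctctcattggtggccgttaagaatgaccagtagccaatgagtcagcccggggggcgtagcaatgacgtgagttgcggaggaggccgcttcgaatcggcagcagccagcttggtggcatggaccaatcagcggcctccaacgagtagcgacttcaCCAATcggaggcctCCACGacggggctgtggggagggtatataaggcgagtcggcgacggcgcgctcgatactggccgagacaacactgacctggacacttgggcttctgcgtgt

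Totals of counted fragments lay between 39001456 and 41819953 per library, and a count of 0 allowed up to 0.0926 CPM (counts scaled for library size by TMM; 3 counts as the limit, counting error only). Selenow counts were near the wild-type level in 4 of the 11 KO libraries, and lower but not absent in the other 7. Libraries 13, 16, 19 and 22, 1 in each KO group, had Selenow at 82.4% to 102% of the mean wild-type level for that hour, and the other 7 at 32.6% to 63.9%. The KO call totals against 0 h, the members' calls between genotypes and the interaction tests are therefore also given without these 4 libraries. All other KO values below include them. Libraries 3, 6, 9, 12, 14, 17, 20 and 23 are 1 from each group. At each time the wild-type and the KO library of these deviated from their group means together. Their correlations lay between 0.738 and 0.788 across 8914 genes (genes are not independent replicates). The other pairs of wild-type and KO libraries of a time point lay between -0.78 and 0.738. Centring groups of 2 or 3 libraries on their own means by itself gives large correlations. At 24 h the 2 KO libraries mirror each other by this centring. These 8 are called the second library set below, a grouping seen in the data and not in the labels. No correlation ties libraries of different times together. The deviation of a gene could change direction, as for Atf4. Its ratios to the other libraries were 1.52 (library 3) and 1.26 (library 14) at 0 h. At 4 h they were 0.66 (library 6) and 0.71 (library 17). The 8 macrophage markers summed to between 12831 and 28023 CPM in every library. The 8 neutrophil and precursor markers summed to between 98.5 and 114 CPM in untreated wild-type and between 174 and 175 CPM in untreated KO libraries, and to at most 19.03 CPM at 24 h. These changes occur in the same samples as the results below, and their part in them was not tested. Of the 7 plasma cell markers, a cell type rich in UPR genes, the defining genes Jchain, Mzb1 and Tnfrsf17 had group means of at most 0.13, 0.04 and 0.19 CPM. The list's sum was carried by Sdc1 (5.89 CPM in untreated wild-type, 107 CPM at 8 h) and Prdm1 (7.63 and 24.3 CPM). The 5 stromal markers summed to between 1.61 and 40.7 CPM over wild-type and between 1.72 and 98.3 CPM over KO libraries. In such bulk RNA, fewer cells of a type and less RNA per cell cannot be told apart.

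In untreated wild-type macrophages, the members spanned from 2.99 ± 2.41 CPM per kilobase of exon (Chac1) to 229 ± 51.1 CPM per kilobase (Calr), each a mean ± SD of 3 libraries. Calr, the calcium-binding lectin chaperone calreticulin, was followed by the disulphide isomerases P4hb (168 ± 29.1) and Pdia3 (138 ± 16.01) and by the chaperones Hspa5 (114 ± 24.1) and Hsp90b1 (113 ± 17.2, the ER form of HSP90). Between most neighbours in this order the gap was smaller than the sum of their SDs, as for Hspa5, Hsp90b1 and Atf4 (106 ± 27.2). It was larger for 3 pairs, Canx (85.8 ± 5.52) above Xbp1 (59.9 ± 2.78), Dnajc3 (14.02 ± 1.41) above Sesn2 (9.45 ± 1.58) and Ern1 (6.20 ± 0.115) above Eif2ak3 (5.26 ± 0.570). Atf4 was the sixth of the 33, far above its targets Ddit3 (7.05 ± 1.43) and Trib3 (7.21 ± 4.86). Both sensor kinases sat near the bottom, and Atf6 stood at 15.2 ± 0.628.

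**Figure D1:**
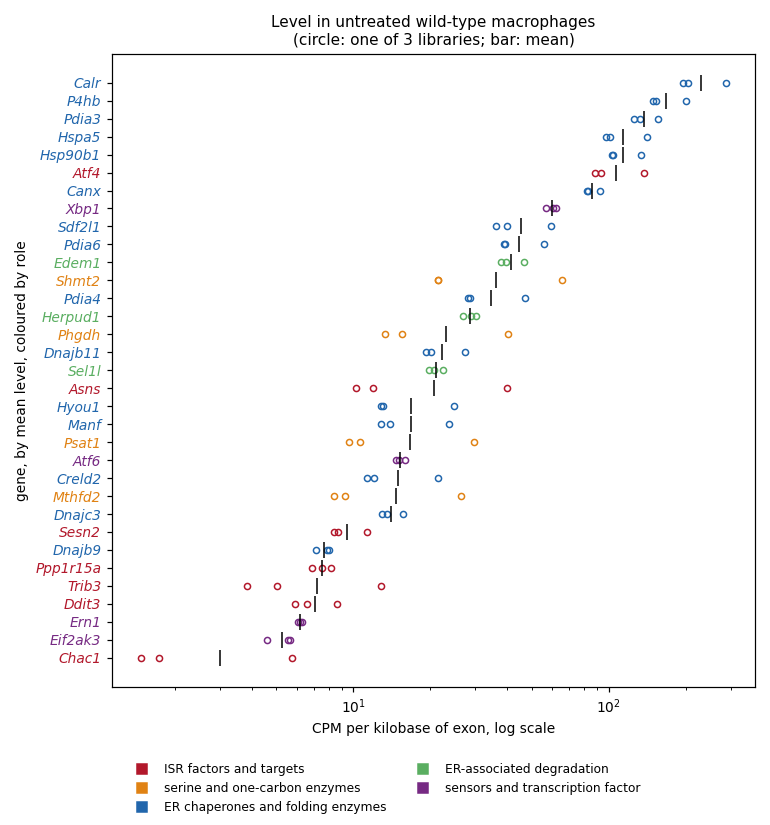
Level of the 33 genes in untreated wild-type macrophages, in CPM per kilobase of exon on a log scale, with a circle for each of 3 libraries, a bar for the mean and the colour for the role. Abundant chaperones lead with Calr at a mean of 229, the sensor kinases lie near 5 to 6, and in the amino acid genes 1 library (library 3) lies far to the right of the other 2.

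With LPS, calls were split between higher and lower at 4 h and were mostly higher at 8 and 24 h. In wild-type cells 17 of 33 members were called at 4 h against 0 h (8 higher, 9 lower), where 62.9% of all tested genes were called (28.2% higher, 34.8% lower). The share of members called was thus not above the background. At 8 h 20 were called (17 higher, 3 lower; background 65.4%, 30.3% higher and 35.1% lower). At 24 h 24 were called (19 higher, 5 lower; background 55.1%, 27.8% higher and 27.3% lower). The median log2 fold change of the members was -0.03 at 4 h, 0.47 at 8 h and 0.66 at 24 h, beside -0.12, -0.10 and 0.00 for all tested genes. In KO cells 15 members were called at 4 h (8 higher, 7 lower; background 62.1%, 28% higher and 34.1% lower). In KO at 8 h 17 were called (13 higher, 4 lower; 60.2%, 28.3% higher and 31.9% lower), and at 24 h 24 were called (22 higher, 2 lower; 43.4%, 22.6% higher and 20.8% lower). The KO medians were -0.04, 0.23 and 0.94. From 4 to 8 h, 18 members were called in wild-type (16 higher, 2 lower; background 46.7%, 24% higher and 22.8% lower) and 13 in KO (11 higher, 2 lower; 47.2%, 24.4% higher and 22.8% lower). From 8 to 24 h, 12 were called in wild-type (6 higher, 6 lower; background 44.9%, 23.1% higher and 21.9% lower) and 15 in KO (13 higher, 2 lower; 34.7%, 17.9% higher and 16.8% lower). Upper-quartile scaling gave 13 higher and 8 lower at 8 h in KO, and it moved the median of all genes by -0.11 in KO at 24 h. Without libraries 13, 16, 19 and 22 the KO counts at 4, 8 and 24 h were 11, 15 and 15, library 23 then being the 1 KO library at 24 h. The share of all tested genes under these alternatives is not given, so the changed counts are no result about the members. Chac1 at 4 h was the 1 member called in opposite directions in wild-type and KO.

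**Figure D2:**
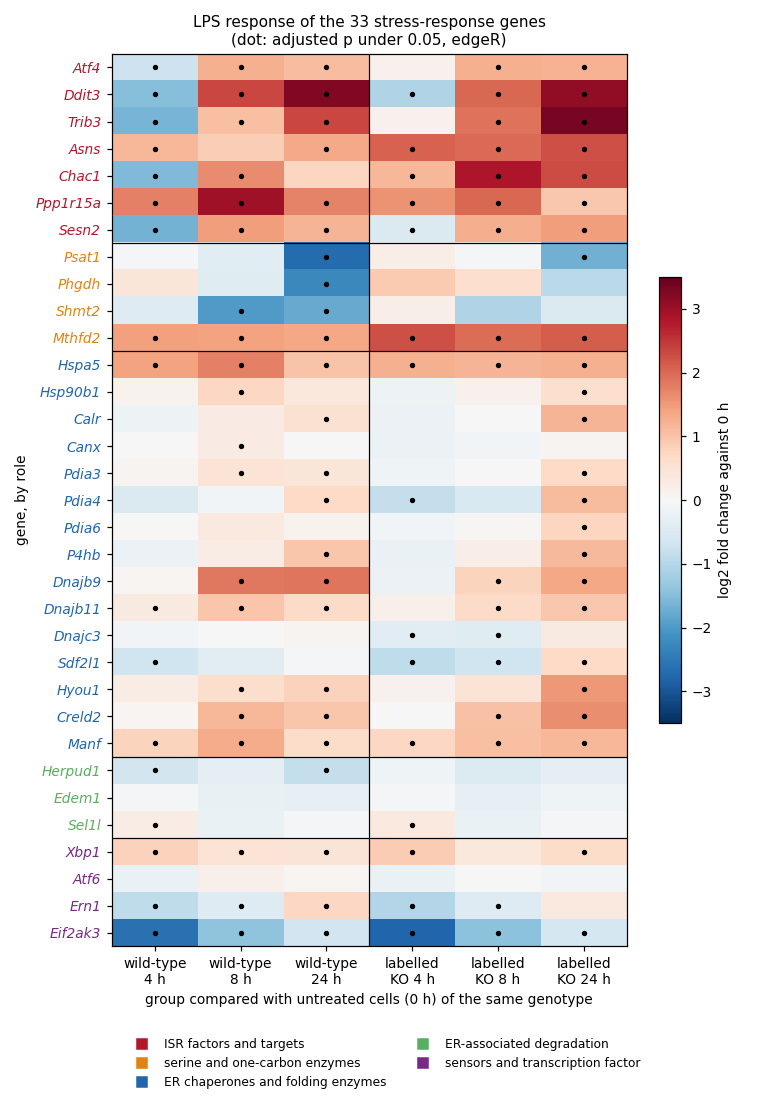
Log2 fold change of each member (coloured by role) after 4, 8 and 24 h of LPS against untreated cells of the same genotype, with a dot where the adjusted p of edgeR's quasi-likelihood test was under 0.05. Most ISR genes change from blue at 4 h to red at 8 and 24 h in wild-type cells, most chaperones redden late, and Eif2ak3 is blue in all 6 columns.

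Most ISR factors and targets fell first and rose later in wild-type cells. All 7 ISR factors and targets were called at 4 h, 5 of them lower and 2 (Asns and Ppp1r15a) higher, and 6 of 7 were higher at 8 h (all but Asns) and at 24 h (all but Chac1). Of all tested genes, 34.8% were lower at 4 h, and 30.3% and 27.8% were higher at 8 and 24 h. Atf4 (chr15:80255184-80257541, plus strand), the central transcription factor, held 219, 209 and 325 CPM in the untreated wild-type libraries, 182, 158 and 112 at 4 h, 635, 572 and 568 at 8 h and 532, 502 and 565 at 24 h. Every 4 h library lay below every untreated one, and all 8 and 24 h libraries lay above. Its log2 fold change (± standard error) was -0.74 ± 0.19 at 4 h (adjusted p = 0.00198), 1.24 ± 0.19 at 8 h (adjusted p = 1.36e-05) and 1.09 ± 0.19 at 24 h (adjusted p = 7.91e-05). In KO it held 179, 212 and 157 CPM untreated, 207, 158 and 238 at 4 h, 398, 467 and 441 at 8 h and 425 and 429 at 24 h. No fall at 4 h was called there (0.14 ± 0.19, adjusted p = 0.534), and the rise at 8 h was (1.26 ± 0.19, adjusted p = 1.36e-05).

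Ddit3 (chr10:127290774-127296288, plus strand), which encodes the pro-apoptotic factor CHOP, had the highest rise of the wild-type ISR genes at 24 h. In wild-type libraries the values were 11.3, 10.1 and 14.8 CPM untreated, 4.24, 4.05 and 4.71 at 4 h, 64.4, 57.4 and 60.8 at 8 h and 97.2, 94.1 and 154 at 24 h. KO libraries held 8.91, 7.65 and 10.6 CPM untreated, 4.91, 3.38 and 4.84 at 4 h, 33.2, 41.3 and 34.2 at 8 h and 80.6 and 75.3 at 24 h. The 4 times did not overlap in either genotype, with 4 h lowest and 24 h highest. The fall at 4 h was 2.78-fold in wild-type (adjusted p = 2.50e-06) and 2.07-fold in KO (adjusted p = 0.000126). The rise at 24 h was 9.53-fold (adjusted p = 5.09e-10) and 8.62-fold (adjusted p = 3.85e-09). A second annotated Ddit3 gene of 105 exonic bases, nested in the first and sharing its reads, moved the same way (log2 -1.62, 2.67 and 3.73 in wild-type). Ddit3 also shares 68 exonic bases, 3.97% of its exonic length, with Mars on the opposite strand, and strand was not used in counting. Mars had a log2 fold change of 0.32 at 24 h in wild-type (not called).

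Trib3 (chr2:152337422-152344032, minus strand), a pseudokinase induced by ATF4 and CHOP, had a similar course. Wild-type libraries held 10.7, 8.12 and 27.1 CPM untreated, 5.22, 3.93 and 5.72 at 4 h, 37.9, 27.8 and 29.7 at 8 h and 75.1, 66.4 and 89.5 at 24 h. KO libraries held 4.55, 7.63 and 3.35 CPM untreated, 4.20, 5.55 and 7.45 at 4 h, 14.9, 26.2 and 17.4 at 8 h and 57.1 and 47.1 at 24 h. Library 3 was the highest untreated library, and the 24 h libraries exceeded all others in both genotypes. Trib3 fell at 4 h in wild-type (-1.63 ± 0.38, adjusted p = 0.000973; -0.92 without library 3), with no call in KO (0.15 ± 0.37, adjusted p = 0.757). At 24 h it rose 5.03-fold in wild-type (adjusted p = 3.73e-05) and 10.05-fold in KO (adjusted p = 3.95e-06). Its rise at 8 h in wild-type (1.05) was not called without library 1, 2 or 7 (0.85, 0.75 and 0.91).

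Sesn2, a stress sensor that restrains mTORC1, held 30.3, 29.1 and 39.1 CPM in untreated wild-type libraries, 12.8, 9.87 and 8.76 at 4 h, 105, 81.5 and 84.5 at 8 h and 75.7, 71.99 and 77.9 at 24 h. KO libraries held 24.9, 25.4 and 23.9 CPM untreated, 15.1, 15.8 and 21.7 at 4 h, 51.2, 69.3 and 59.7 at 8 h and 68.95 and 68.2 at 24 h. It fell 3.13-fold at 4 h in wild-type (adjusted p = 6.53e-08) and 1.41-fold in KO (adjusted p = 0.0111; log2 -0.40 and not called without library 16). At that time the KO libraries all lay above the wild-type ones. Chac1, an ATF4 target that degrades glutathione, had low levels. Its means were 4.90, 1.69, 15.5 and 8.28 CPM in wild-type and 1.45, 3.25, 10.5 and 7.11 CPM in KO over the 4 times. Its fall at 4 h in wild-type (log2 -1.53) was not called without library 3 (-0.64). Its rise at 4 h in KO (log2 1.15) was not called without any 1 of libraries 13, 15, 16, 17 and 18 (0.98, 0.83, 1.16, 1.22 and 1.09). The rise of Chac1 at 8 h was called in both genotypes (log2 1.66 and 2.84).

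Ppp1r15a took another course, rising already at 4 h. It encodes GADD34, which brings a phosphatase to eIF2 and so ends the translational block. In wild-type libraries the values were 24.04, 22.2 and 20.3 CPM untreated, 57.9, 61.8 and 106 at 4 h, 196, 176 and 148 at 8 h and 60.01, 54.7 and 106 at 24 h. The peak was at 8 h, and treated and untreated libraries did not overlap. KO libraries held 19.3, 13.5 and 26.2 CPM untreated, 48.9, 78.2 and 47.6 at 4 h, 74.6, 85.2 and 78.5 at 8 h and 33.9 and 41.7 at 24 h. The rise at 8 h was 7.80-fold in wild-type (adjusted p = 7.95e-08) and 4.04-fold in KO (adjusted p = 7.06e-06). The rise at 24 h in KO (log2 0.94) was not called without library 14 or 23 (0.73 and 0.79).

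**Figure D3:**
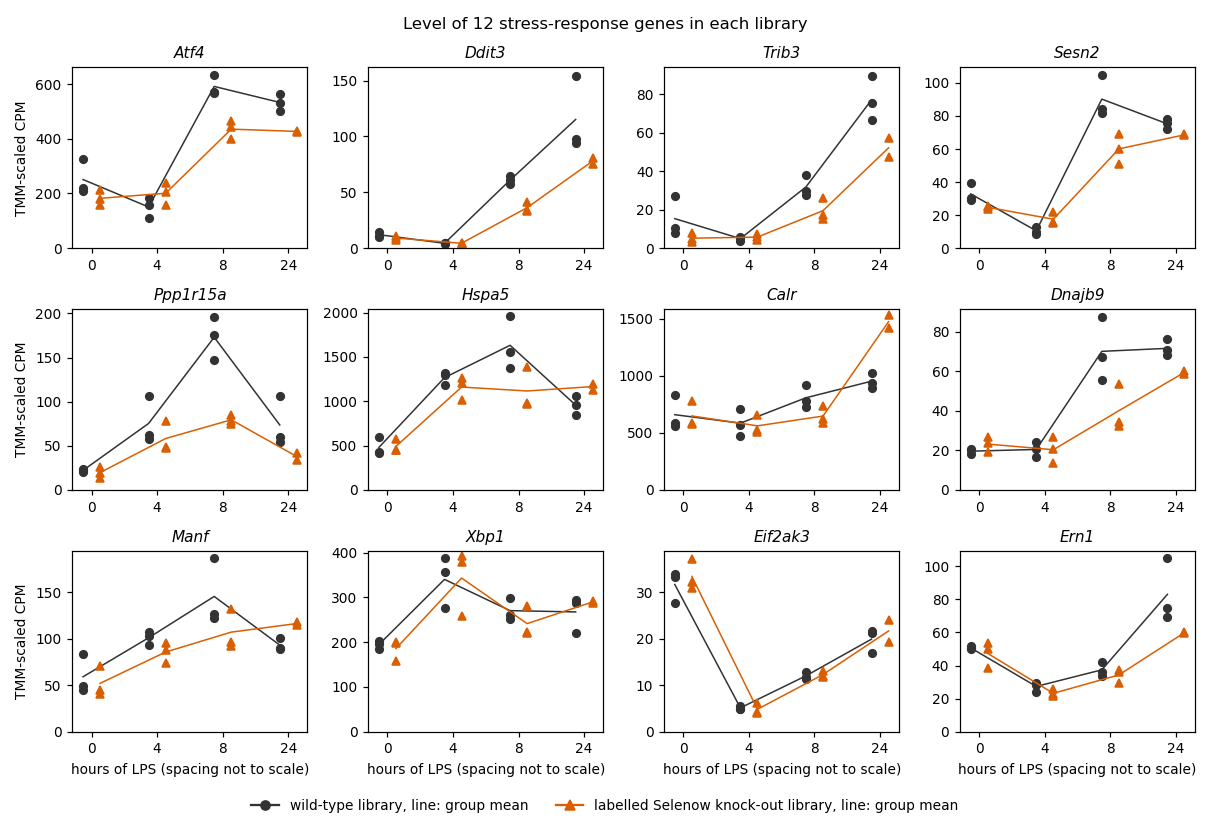
TMM-scaled CPM of 12 members in each of the 23 libraries by hours of LPS (axis spacing not to scale), with circles for wild-type, triangles for KO and lines through group means. Ddit3, Trib3 and Sesn2 are lowest at 4 h in wild-type and high later, Ppp1r15a of KO at 8 h (74.6 to 85.2 CPM) lies below wild-type (148 to 196 CPM), and Eif2ak3 is lowest at 4 h in both genotypes.

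The amino acid genes split into 2 courses. Asns (asparagine synthetase, an ATF4 target with the CARE shown above) and Mthfd2 (a mitochondrial folate enzyme) rose at 4 h. Psat1 and Phgdh (enzymes of serine synthesis) and Shmt2 (which passes serine carbon to folate) fell late in wild-type cells. Asns was called higher at all 3 times in KO and at 4 and 24 h in wild-type. Its means were 56.5, 126, 102 and 141 CPM in wild-type and 24.1, 100.4, 95.8 and 114 CPM in KO. Mthfd2 rose at all 3 times in both genotypes, by 2.73-, 2.64- and 2.57-fold in wild-type and by 4.76-, 3.86- and 4.31-fold in KO (largest of the 6 adjusted p-values 0.00824). The wild-type rise of Asns at 4 h (log2 1.15) was not called without library 1, 2 or 6 (0.88, 0.83 and 0.99). Nor was that at 24 h (log2 1.31) without library 1 or 2 (1.04 and 0.99). Without library 3 these values were 2.05 and 2.21.

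Psat1 libraries held 45.2, 41.004 and 126 CPM in untreated wild-type cells, 56.04, 56.5 and 94.8 at 4 h, 52.2, 47.6 and 63.9 at 8 h and 11.4, 13.01 and 8.47 at 24 h. Those of KO held 32.3, 83.3 and 19.9 CPM untreated, 41.7, 75.2 and 41.95 at 4 h, 38.8, 52.6 and 40.1 at 8 h and 14.01 and 13.995 at 24 h. The 24 h libraries were the lowest in both genotypes. The fall was 6.47-fold in wild-type (adjusted p = 9.20e-05; log2 -2.69, -1.98 without library 3) and 3.23-fold in KO (adjusted p = 0.0141; not called without library 14, 22 or 23, at log2 -0.90, -1.69 and -1.69). Phgdh held 38.5, 33.2 and 100.3 CPM in untreated wild-type libraries, 60.2, 60.5 and 109 at 4 h, 32.02, 35.4 and 59.9 at 8 h and 12.7, 11.5 and 11.99 at 24 h. In KO it held 21.5, 59.3 and 13.7 CPM untreated, 33.9, 106 and 38.5 at 4 h, 40.9, 61.02 and 39.3 at 8 h and 15.7 and 16.9 at 24 h. Its fall at 24 h was called in wild-type (log2 -2.24 ± 0.53, adjusted p = 0.00155; -1.57 without library 3) and not in KO (-0.95 ± 0.59, adjusted p = 0.203). Shmt2 held 66.98, 66.4 and 204 CPM in untreated wild-type libraries, 59.4, 61.98 and 125 at 4 h, 21.003, 23.5 and 40.3 at 8 h and 38.9, 40.2 and 19.8 at 24 h. In KO it held 44.3, 101.3 and 33.3 CPM untreated, 35.2, 126 and 43.96 at 4 h, 25.4, 37.4 and 23.5 at 8 h and 48.02 and 35.98 at 24 h. Wild-type Shmt2 fell 3.97-fold at 8 h (adjusted p = 0.00368), and its fall at 24 h (log2 -1.77) was not called without library 3 (-1.02).

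The same genes differed between untreated libraries of 1 group. Library 3 held 2.93-, 2.80-, 3.05-, 2.99- and 3.58-fold the mean of libraries 1 and 2 for Psat1, Phgdh, Shmt2, Mthfd2 and Asns. Library 14 held 3.19-, 3.37-, 2.61-, 3.13- and 3.11-fold the mean of libraries 13 and 15 for the same genes. For Chac1 the ratios were similar (3.59- and 2.85-fold). In all, 6 of the 33 members were at least 2-fold higher in both library 3 and library 14 than in the other untreated libraries of their genotype, beside 2.91% of all tested genes. A ratio of at least 1.5 in both was found for 11 members, beside 8.45%. The 6 were Asns, Chac1 and the 4 serine and one-carbon enzymes, and Trib3 had ratios of 2.89 and 1.93.

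**Figure D4:**
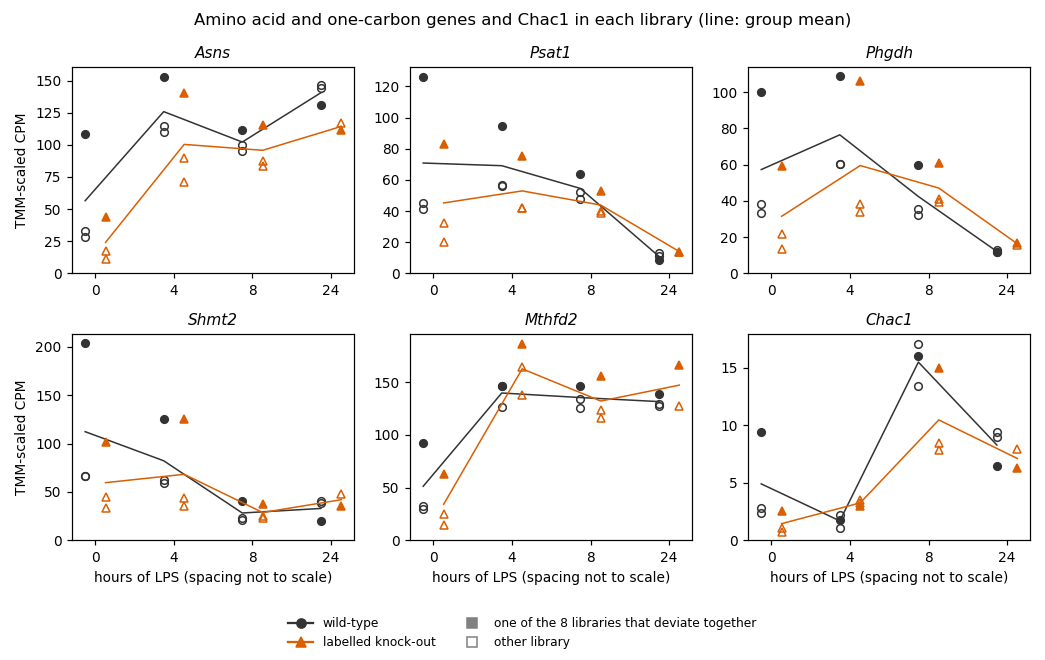
TMM-scaled CPM of 5 amino acid and one-carbon genes and Chac1 in each library by hours of LPS (spacing not to scale). Filled symbols mark the 8 libraries of the second library set, and lines run through group means. At 0 h the filled symbol stands above the open ones in every panel, 109 against 32.7 and 28.05 CPM for Asns in wild-type, while at 24 h the libraries of a group lie close together for Psat1 and Phgdh.

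Among the 15 ER chaperones and folding enzymes, 4 were called at 4 h in wild-type (3 higher, 1 lower), 9 at 8 h and 10 at 24 h (all higher), beside 62.9%, 65.4% and 55.1% of all tested genes called (30.3% and 27.8% higher at 8 and 24 h). In KO, 5 were called at 4 h (2 higher, 3 lower), 7 at 8 h (5 higher, 2 lower) and 13 at 24 h (all higher), beside 62.1%, 60.2% and 43.4% (22.6% higher at 24 h). Their summed level was 3577 ± 651 CPM untreated, 4334 ± 569.7 at 4 h, 5845 ± 848 at 8 h and 5412 ± 473 at 24 h in wild-type (mean ± SD, n = 3). In KO it was 3701 ± 551, 4015 ± 111, 4563 ± 526 (n = 3) and 7009.6 ± 393 CPM (n = 2) at these times. The rise of the mean sum at 4 h came from Hspa5 (log2 1.40 in wild-type and 1.24 in KO). The other genes together did not rise at 4 h in either genotype. The wild-type libraries overlapped between 8 h (5312 to 6823 CPM) and 24 h (4891 to 5814 CPM). The KO libraries at 24 h (6732 to 7288 CPM) lay above those at 8 h (4212 to 5168 CPM).

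Hspa5 (BiP, the ER Hsp70 chaperone that also binds the sensors), with 1 ERSE in its window above, rose at every time, with each treated library above each untreated one. Wild-type libraries held 429, 414 and 597 CPM untreated, 1184, 1319 and 1298 at 4 h, 1556, 1378 and 1961 at 8 h and 846, 963 and 1063 at 24 h. KO libraries held 446, 576 and 453 CPM untreated, 1209.7, 1010.0 and 1263 at 4 h, 985, 1391 and 974 at 8 h and 1133 and 1199.9 at 24 h. The log2 fold change was 1.40 ± 0.18, 1.76 ± 0.18 and 0.996 ± 0.18 in wild-type (adjusted p = 1.61e-06, 1.19e-07 and 0.000114). In KO it was 1.24 ± 0.18, 1.18 ± 0.18 and 1.25 ± 0.19 (adjusted p = 6.94e-06, 1.47e-05 and 4.78e-05). From 8 to 24 h Hspa5 fell in wild-type (log2 -0.77 ± 0.18, adjusted p = 0.00176).

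Dnajb9, an Hsp40 co-chaperone of BiP that restrains IRE1, was not called at 4 h and rose at 8 h. In wild-type libraries the values were 20.1, 20.5 and 18.2 CPM untreated, 20.6, 24.1 and 16.8 at 4 h, 67.1, 55.6 and 87.7 at 8 h and 68.1, 70.6 and 76.2 at 24 h. KO libraries held 23.7, 19.1 and 26.8 CPM untreated, 20.7, 13.6 and 26.8 at 4 h, 34.3, 53.7 and 32.3 at 8 h and 60.2 and 58.7 at 24 h. The rise at 8 h was 3.58-fold in wild-type (adjusted p = 1.39e-06) and 1.73-fold in KO (adjusted p = 0.00544; log2 0.52 and not called without library 20). Manf, a secreted ER stress-induced protein, held 48.9, 45.4 and 83.3 CPM untreated, 92.8, 104 and 107 at 4 h, 123, 127 and 187 at 8 h and 88.97, 100.5 and 90.3 at 24 h in wild-type. In KO the values of Manf were 44.9, 70.97 and 40.4 CPM untreated, 87.7, 74.5 and 95.2 at 4 h, 96.8, 132 and 92.8 at 8 h and 118 and 115 at 24 h in KO. Treated and untreated libraries of Manf did not overlap in either genotype. It rose at 8 h (log2 1.30 ± 0.23 in wild-type and 1.04 ± 0.23 in KO, adjusted p = 8.32e-05 and 0.000763). The wild-type rise at 24 h (0.66) was not called without library 1, 2 or 11 (0.53, 0.50 and 0.60), and the KO rise at 4 h (0.72) was not called without library 13 or 15 (0.62 and 0.57).

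The other 12 chaperones and folding enzymes were called mostly at 24 h in KO, and at both 8 and 24 h in wild-type. At 4 h Sdf2l1, a stress-induced partner of BiP co-chaperones, fell in both genotypes (log2 -0.69 and -0.88; in wild-type not called without library 3, 4 or 5, at -0.44, -0.54 and -0.61). Dnajb11 was higher at 4 h in wild-type (0.32; not called without library 1, 2, 5 or 6, at 0.25, 0.23, 0.32 and 0.25). Pdia4 and Dnajc3 were lower at 4 h in KO (-0.82 and -0.37; Dnajc3 not called without library 16, at -0.30). At 8 h Dnajb11 and Creld2 were higher in both genotypes (0.96 and 1.17 in wild-type, 0.68 and 1.03 in KO). Hsp90b1, Pdia3, Hyou1 and Canx were called higher at 8 h in wild-type (0.71, 0.47, 0.62 and 0.28) with KO values of 0.16, 0.03, 0.49 and -0.10. The calls of the last 3 did not hold without library 1, 2 or 9 (Pdia3 0.44, 0.41 and 0.31; Hyou1 0.47, 0.46 and 0.41; Canx 0.25, 0.25 and 0.17). Dnajc3 and Sdf2l1 were lower in KO at 8 h (-0.42 and -0.69; Sdf2l1 not called without library 14 or 21, at -0.46 and -0.59). At 24 h P4hb, Hyou1 (an Hsp110-type exchange factor), Creld2, Dnajb11, Calr, Pdia3 and Pdia4 were higher in both genotypes. Their log2 fold changes were 0.97, 0.81, 0.96, 0.66, 0.53, 0.44 and 0.70 in wild-type and 1.14, 1.52, 1.63, 0.95, 1.19, 0.69 and 1.11 in KO. Leaving out 1 library ended 4 of these calls. In wild-type they were Calr without 1, 2 or 11 (0.45, 0.43 and 0.47), Pdia3 without 1, 2, 11 or 12 (0.41, 0.37, 0.41 and 0.34) and Pdia4 without 1, 2 or 11 (0.59, 0.57 and 0.64). In KO it was Pdia3 without 23 (0.62). Hsp90b1, Pdia6 and Sdf2l1 were called higher at 24 h in KO alone (0.58, 0.76 and 0.70), with wild-type values of 0.37, 0.14 and -0.05. Hsp90b1 was not called without 13, 15 or 23 (0.51, 0.52 and 0.51), nor Sdf2l1 without 13, 15, 22 or 23 (0.63, 0.56, 0.58 and 0.81). The test of that difference between genotypes called none of them. With a term for the second library set it called Pdia6 (log2 0.66, adjusted p = 0.00212) and Sdf2l1 (0.80, adjusted p = 0.00067) in edgeR. With that set left out, KO at 24 h being library 22 alone, it also called both (adjusted p = 0.0327 and 0.0201). Canx (calnexin) and Dnajc3 were not called at 24 h in either genotype (adjusted p between 0.0538 and 0.936). Reads of Hsp90b1 may include those of 1810014B01Rik on the opposite strand, with which it shares 415 exonic bases, 10.3% of its exonic length.

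Few calls were made among the 3 genes of ER-associated degradation. Herpud1, a ubiquitin-like scaffold of the retrotranslocation complex, held 62.8, 70.5 and 67.3 CPM in untreated wild-type libraries, 44.3, 42.001 and 42.1 at 4 h, 44.4, 44.1 and 70.98 at 8 h and 37.97, 40.1 and 33.97 at 24 h. In KO it held 58.4, 55.3 and 59.6 CPM untreated, 40.6, 52.5 and 62.01 at 4 h, 34.2, 58.6 and 32.1 at 8 h and 48.4 and 44.6 at 24 h. Herpud1, whose window holds both ERSE-II and CARE, fell at 4 and 24 h in wild-type (log2 -0.64 ± 0.20 and -0.84 ± 0.20, adjusted p = 0.00968 and 0.00179). No call was made in KO (-0.16, -0.47 and -0.31). Edem1, a lectin that routes glycoproteins to degradation, held between 192 and 319 CPM over all wild-type libraries and between 222 and 344 CPM over KO, with no call at any time against 0 h. Sel1l, the adaptor of the ubiquitin ligase Hrd1, had wild-type values of 169.6, 178 and 191 CPM untreated, 207, 212 and 225 at 4 h, 151, 134 and 177 at 8 h and 168, 170.2 and 183 at 24 h. Its KO values were 177, 176 and 179 CPM untreated, 211, 234 and 223 at 4 h, 138, 169.8 and 145 at 8 h and 175 and 160.2 at 24 h. It was higher at 4 h in both genotypes (log2 0.26 and 0.33, adjusted p = 0.0352 and 0.00882). The wild-type call did not hold without library 1, 2, 5 or 6 (0.22, 0.25, 0.27 and 0.22).

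At 4 h the mRNAs of the sensor kinases fell and that of Xbp1 rose. Eif2ak3 had the larger fall, from 33.4, 33.9 and 27.8 CPM in wild-type cells before LPS to 4.93, 5.53 and 4.98 at 4 h, 11.5, 11.8 and 12.9 at 8 h and 21.3, 21.7 and 16.9 at 24 h. KO libraries held 32.3, 30.9 and 37.3 CPM untreated, 4.32, 6.20 and 4.004 at 4 h, 11.96, 13.1 and 11.9 at 8 h and 24.03 and 19.4 at 24 h. Treated libraries lay below untreated ones throughout, and the level recovered in part with time. The fall at 4 h was 6.16-fold in wild-type (adjusted p = 1.11e-10) and 6.90-fold in KO (adjusted p = 6.09e-11). A fall was still called at 24 h (1.59- and 1.54-fold; in KO not without library 23, log2 -0.47). Eif2ak3 shares 485 exonic bases (8.05%) with Gm43292 on the opposite strand. Ern1 held 50.7, 51.6 and 49.7 CPM in untreated wild-type libraries, 28.4, 24.1 and 29.6 at 4 h, 42.1, 36.2 and 33.9 at 8 h and 74.6, 69.5 and 105 at 24 h. In KO it held 49.8, 38.4 and 53.8 CPM untreated, 21.4, 22.5 and 25.8 at 4 h, 37.5, 29.2 and 36.2 at 8 h and 60.1 and 59.6 at 24 h. Ern1 fell at 4 h in both genotypes (log2 -0.89 ± 0.15 and -1.03 ± 0.15, adjusted p = 5.38e-05 and 1.12e-05) and rose at 24 h in wild-type (0.71 ± 0.15, adjusted p = 0.000639), with every library above the untreated ones. Its smaller falls at 8 h (-0.44 and -0.46) were not called without library 8 or 9 in wild-type (-0.41 and -0.37) nor without 15 or 20 in KO (-0.36 and -0.36).

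Xbp1 libraries held 197, 202 and 185 CPM in untreated wild-type cells, 389, 356 and 276 at 4 h, 261, 252 and 298 at 8 h and 295, 287 and 220.4 at 24 h. Those of KO held 199.6, 159 and 199 CPM untreated, 379.8, 258 and 392 at 4 h, 223, 281 and 221 at 8 h and 293 and 287 at 24 h. All treated libraries lay above the untreated ones of their genotype. Xbp1 rose at 4 h (log2 0.81 ± 0.17 and 0.89 ± 0.17, adjusted p = 0.00032 and 0.000129). The smaller wild-type rises at 8 h (0.47) and 24 h (0.46) were not called without library 3 or 9 (0.44 and 0.40) and without library 1, 3, 10 or 11 (0.46, 0.42, 0.38 and 0.40). In KO the rise at 24 h was called (0.64 ± 0.18, adjusted p = 0.00794) and that at 8 h was not (0.38, adjusted p = 0.0548). Atf6 was not called against 0 h at any time in either genotype, with group means between 115 and 158 CPM.

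The time of the highest group mean differed by role. In wild-type cells the peak was at 8 h for 13 members, at 24 h for 10, before LPS for 6 and at 4 h for the remaining 4. In KO cells 20 members peaked at 24 h and 3 at 8 h, while 6 did so at 4 h and 4 before LPS. Of all tested genes, 18.8% peaked at 8 h and 21.8% at 24 h in wild-type, and 18.6% and 21.7% in KO. All 15 chaperones and folding enzymes peaked at 24 h in KO, against 6 at 24 h and 8 at 8 h in wild-type. These are descriptions of group means, without a test, and libraries of neighbouring times can overlap, as for the wild-type chaperone sum above.

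Between genotypes few members were called. Untreated KO cells had 1 member called lower, Trib3 (background 1.52%, 0.863% lower). At 4 h 1 was higher, Sesn2 (1.24%, 0.503% higher), and at 8 h 2 were lower, Ddit3 and Ppp1r15a (2.2%, 1.4% lower). At 24 h none was called (1.19%), and 0 were called by DESeq2. Averaged over the times, Ddit3, Trib3 and Ppp1r15a were lower in KO (background 6.27%, 3.14% lower). Untreated Trib3, given by library above, had a log2 difference (KO against wild-type) of -1.56 ± 0.37 (adjusted p = 0.0391), with every KO library below every wild-type one. It was not called without library 3, 10, 13, 15 or 21 (-0.86, -1.56, -1.48, -1.33 and -1.56), nor without 13, 16, 19 and 22 together (-1.48, adjusted p = 0.249). Sesn2 at 4 h differed by 0.74 ± 0.16 (adjusted p = 0.0222). It was not called without library 5, 6 or 18 (0.70, 0.63 and 0.56) nor without the 4 libraries (0.83, adjusted p = 0.0532). Ddit3 at 8 h differed by -0.75 ± 0.18 (adjusted p = 0.0361). This was not called without library 7, 8, 9, 13, 19 or 21 (-0.71, -0.79, -0.75, -0.75, -0.69 and -0.71) nor without the 4 libraries (-0.69, adjusted p = 0.315).

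Ppp1r15a at 8 h differed by -1.12 ± 0.28 (adjusted p = 0.0359), a KO level 2.18-fold below wild-type with no overlap of libraries. It was not called without library 7, 8, 19, 20 or 21 (-1.03, -1.11, -1.08, -1.18 and -1.11) nor without the 4 libraries (-1.08, adjusted p = 0.273). On average over times it differed by -0.66 ± 0.14 (adjusted p = 0.00714), Ddit3 by -0.43 ± 0.10 (adjusted p = 0.00993) and Trib3 by -0.66 ± 0.19 (adjusted p = 0.0441). Without the 4 libraries these averages were -0.58, -0.45 and -0.59 (adjusted p = 0.134, 0.0773 and 0.281), none called. Trib3 averaged over times was also not called without any 1 of 15 libraries (-0.48 to -0.69; -0.48 without library 3), while Ddit3 and Ppp1r15a kept this call without each of the 23.

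Direction differed by role and by time between the genotypes. At 0, 8 and 24 h all 7 ISR genes had values below wild-type (median log2 -0.46, -0.59 and -0.32), and at 4 h 5 of 7 were above (0.21). The 15 chaperones and folding enzymes had 8 values above and 7 below wild-type at 0 h (median 0.03) and 15 below at 4 h (median -0.13, from -0.26 to -0.01). They had 15 values below wild-type at 8 h (median -0.31, from -0.81 in Dnajb9 to -0.13 in P4hb) and 14 above at 24 h (median 0.39, up to 0.70 in Sdf2l1 and 0.63 in Calr), with Dnajb9 below (-0.27). Of all tested genes, 49.5%, 51.9%, 50.4% and 49.7% were above wild-type at 0, 4, 8 and 24 h. Groups did not overlap for 3, 3 and 12 of the 33 members at 0, 4 and 8 h, beside 20.8%, 12.3% and 21.4% of all tested genes. At 24 h, with 2 KO libraries and no member called, they did not overlap for 26 of the 33, beside 31.5%. By library at 8 h, all 15 chaperones lay below every wild-type library in library 19 and in library 21, and 7 of 15 in library 20, beside 29.01%, 28.4% and 24.9% of all tested genes. At 24 h, 13 of 15 lay above every wild-type library in library 22 and 13 in library 23 (all tested genes 31.6% and 26.4%). Selenow stood at 82.4%, 42.6% and 39.4% of the wild-type mean in libraries 19, 20 and 21. In libraries 22 and 23 it stood at 102% and 63.9%. A relation of these shifts to the Selenow level was not tested.

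**Figure D5:**
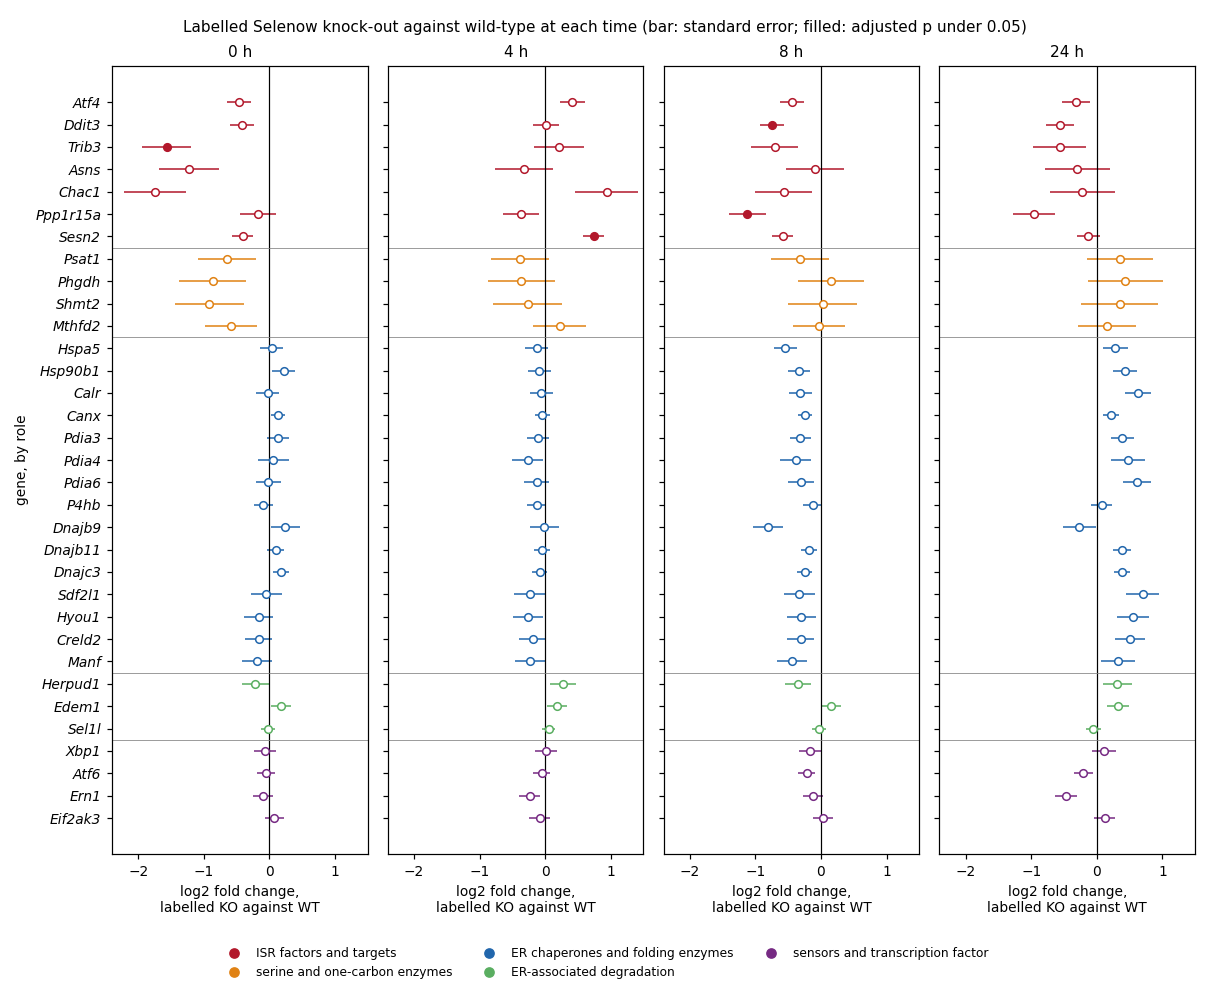
Log2 difference of KO against wild-type for each member at 0, 4, 8 and 24 h, with standard errors, coloured by role and filled where the adjusted p was under 0.05. The 7 ISR genes lie left of 0 at 0, 8 and 24 h, the chaperones lie left of 0 at 4 and 8 h and all but Dnajb9 right of it at 24 h, and the 4 filled points are Trib3, Sesn2, Ddit3 and Ppp1r15a.

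Accounting for the second library set raised the number of genotype calls. With a term for the set at each time, 8 members were lower in KO at 0 h, 3 higher at 4 h, 21 lower at 8 h, and 14 higher and 4 lower at 24 h. In this fit 13.6%, 4.66%, 16.2% and 19.5% of all tested genes were called. The 8 lower at 0 h were Atf4, Trib3, Asns, Chac1, Psat1, Phgdh, Shmt2 and Mthfd2, and the 3 higher at 4 h were Atf4, Chac1 and Sesn2. Within the other libraries alone, an alternative added after the data were seen, 7 were lower at 0 h, 3 higher and 2 lower at 4 h, 13 lower at 8 h, and 7 higher and 1 lower at 24 h (all tested genes 6.56%, 3.69%, 14.5% and 5.46%). KO at 24 h is then library 22 alone, in which Selenow stood at 102% of the wild-type mean, and its spread is assumed to be that of the other groups. The set was found from these same counts, so these p-values may be too small. The second set alone leaves 1 library per group, which allows no test: Hspa5 at 8 h held 1391 CPM in library 20 against 1961 CPM in library 9, and Ppp1r15a 85.2 against 148 CPM.

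Whether the LPS response itself differed between genotypes was tested as an interaction. No member was called at 4, 8 or 24 h by edgeR (background 0.0442%, 0.0442% and 0% of all tested genes). At 4 h DESeq2 called Sesn2 (adjusted p = 0.00661) and Chac1 (adjusted p = 0.032). None was called by edgeR jointly over the 3 times (0.111%), where DESeq2 called 2, Chac1 and Sesn2. The smallest joint values were those of Sesn2 (adjusted p = 0.0536), Chac1 (0.366) and Dnajc3 (0.371), none called. Leaving out library 3 or library 4 gave 1 call each. With the term for the library set 6, 13 and 16 members were called at 4, 8 and 24 h (0.874%, 12.7% and 16.4% of all tested genes). With that set left out 2, 10 and 8 were called (0.372%, 9.12% and 4.31%), KO at 24 h again being library 22. With the term 25 members were called jointly (19.5% of all tested genes), and 20 with the set left out (9.92%). Without libraries 13, 16, 19 and 22 none was called.

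Other genes of the pathway were counted from lists by role, to be read against the wild-type background. Of all tested genes 62.9%, 65.4% and 55.1% were called at 4, 8 and 24 h, with 28.2%, 30.3% and 27.8% higher and 34.8%, 35.1% and 27.3% lower. Of 21 further genes of ER-associated degradation, 18 were called at 8 h in wild-type (16 higher, 2 lower) and 16 at 24 h (all higher). The leading genes at 8 h were Edem2 (log2 1.36 ± 0.14), Syvn1 (1.28 ± 0.20, the ligase Hrd1), Selenos (1.23 ± 0.13, a selenoprotein of the retrotranslocation complex) and Ube2j1 (1.06 ± 0.08). Of 20 translocon and signal peptidase genes, 14 were called at 8 h (12 higher) and 11 at 24 h (all higher). The leading genes here were Srpr (1.60 ± 0.14), Sec61a1 (1.17 ± 0.14), Srp54a (1.16 ± 0.27) and Sec61g (1.07 ± 0.12). Of 15 tested genes of the wider ATF4 programme, 10 were called at 4 h (8 higher) and 10 at 8 h (9 higher). At 4 h Slc7a11, the cystine importer, rose by 5.91 ± 0.49, Ddit4 by 2.94 ± 0.55, Nupr1 by 2.95 ± 0.26 and Cebpb by 2.79 ± 0.28.

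Among 15 genes of eIF2 kinases and eIF2 control, 12 were called at 4 h in wild-type (7 higher, 5 lower; all tested genes 62.9%, 28.2% higher and 34.8% lower). Eif2ak2, the kinase PKR that senses double-stranded RNA and is induced by interferon, rose by 3.31 ± 0.18 on the log2 scale and Ppp1r15b, the constitutive partner of the eIF2 phosphatase, by 2.43 ± 0.18. Impact, an inhibitor of the kinase GCN2, fell at 4 h (-2.58 ± 0.17). Of 18 tRNA synthetases, 7 were higher and 2 lower at 4 h, 5 higher and 6 lower at 8 h, and 10 higher and 2 lower at 24 h. Wars, a known interferon target, stood at 1.70 ± 0.20 at 4 h and Aars and Cars at 1.28 ± 0.21 and 1.14 ± 0.21 at 24 h. Of 25 further chaperones and folding enzymes, 15 were called at each of 4, 8 and 24 h (9, 10 and 10 higher; 62.9%, 65.4% and 55.1% of all tested genes called). Serp1 stood at 2.38 ± 0.23 at 8 h and Ero1l, the oxidase that recharges disulphide isomerases, at 2.89 ± 0.47 at 24 h. Of 9 tested ER membrane transcription factors and proteases, 7 were called at 8 h (5 higher). Creb3l2 stood at 1.38 ± 0.21 and Mbtps1, the protease that cleaves ATF6, at -1.005 ± 0.09. Of 9 further amino acid enzymes, 4 were called at 8 h, all lower, with Mthfd1 at -3.45 ± 0.51. Between genotypes at 8 h, named because they were the few called, Gdf15, Impact and Derl3 were lower in KO (log2 -1.25, -0.71 and -1.53), with Derl3 at group means of at most 1.25 CPM. At 24 h Erp29 was higher (0.38). None of the genes on these lists was called between genotypes at 0 or 4 h.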

How the data were processed

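The deposited table held raw counts of fragments per gene. Per the file headers, the authors ran featureCounts 2.0.1 with Ensembl release 101 (GRCm38), paired-end, over exons, without strand and counting a fragment in each overlapping gene. Per the submitters' processing notes reads were aligned with HISAT2, whose version is not given in the sources used here. The notes also list DESeq2. The table held 0 columns of samples outside the series. Symbols came from GENCODE M21, which matched 55141 gene IDs and left 260 unmatched. The table contains 2 genes named Ddit3, and the longer was used.

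From these counts all 23 libraries were fitted together in R 4.3.3 with edgeR 4.0.16 (filterByExpr, TMM scaling, quasi-likelihood F test, 1 coefficient per group of genotype and time). P-values were adjusted by Benjamini-Hochberg over 18083 genes. A gene was called at an adjusted p under 0.05. Standard errors are the log2 fold change divided by the root of F. CPM values are TMM-scaled. Overlap of groups means overlap of their ranges over libraries. The fit was run on simulated counts drawn independently for each library. They lacked the shared deviation of the second library set, so they cannot show how the fit behaves with it. Limma 3.58.1 was loaded with edgeR.

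Libraries total between 39001456 and 41819953 counts, and a count of 0 allows up to 0.0926 CPM. Alternatives were DESeq2 1.42.0 and other scalings (RLE and upper-quartile). Further ones were no filter or a filter of 1 CPM in 3 libraries, a test against a fold of 1.5, the compared groups alone, each library left out in turn, libraries 13, 16, 19 and 22 left out, and a term for the second library set. Leaving out that set was added after seeing the data. Motifs were searched as plain letters in RefSeq promoter windows.

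Members and lists were chosen with earlier results of these data known. Values by library are given for Atf4, Ddit3, Xbp1 and Hspa5, for the 3 members per role with the largest wild-type change with LPS (mean of at least 5 CPM in a group), and for members called between genotypes. From each other list at most 4 called genes with the largest change are named for a comparison.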

Additional observations from a re-analysis of the deposited data

How the results depend on the processing

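Over all comparisons the members gave 182 calls, of which 91 held under every alternative and 0 reversed, and 29 were lost under the fold test alone. Tested against a fold of 1.5, the calls against 0 h were 9, 13 and 13 in wild-type at 4, 8 and 24 h and 8 in KO at 4 h. Those from 4 to 8 h were 9 in wild-type and 7 in KO, and those from 8 to 24 h were 4 in each. Those between genotypes were 0 at 0, 4 and 8 h and 0 on average. This test asks for a larger change by construction. A term for the second library set gave 30 calls in wild-type from 4 to 8 h and 23 from 8 to 24 h. It gave 23 and 26 in KO at 4 and 8 h against 0 h, and 24 in KO from 4 to 8 h. Between genotypes it gave 8, 3, 21 and 18 at 0, 4, 8 and 24 h, 12 on average and 25 in the joint interaction. Leaving that set out gave 28 and 23 in wild-type from 4 to 8 and 8 to 24 h. KO then had 23 and 28 at 4 and 8 h against 0 h and 22 and 23 from 4 to 8 and 8 to 24 h. Between genotypes 7, 5, 13 and 8 were called at the 4 times, 10 on average and 20 jointly. KO at 24 h is then library 22 alone, with Selenow at 102% of the wild-type mean, and is assumed to vary like the other groups. Without libraries 13, 16, 19 and 22 KO had 15 calls at 24 h against 0 h and 7 from 8 to 24 h, and the genotypes 0 at 0, 4 and 8 h and 0 on average. DESeq2 called 2 between untreated genotypes, 4 at 8 h and 2 jointly. Without a filter 2 were called between untreated genotypes and 1 jointly, and with the compared groups alone 0 at 0 h and 0 at 4 h. These counts, and the ranges below, are of members alone. For the library set, shares of all tested genes are given above for the genotype tests at each time and jointly. Where no share is given, a higher or lower count is no result about the members. The cause of these changes was not tested.

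With each library left out in turn, calls against 0 h ranged from 14 to 17, 16 to 23 and 18 to 24 in wild-type at 4, 8 and 24 h. They ranged from 12 to 18, 16 to 19 and 18 to 25 in KO. From 4 to 8 h they ranged from 13 to 20 in wild-type and 12 to 14 in KO, and from 8 to 24 h from 10 to 13 and 10 to 16. Between genotypes they ranged from 0 to 3 at 0 h, 0 to 1 at 4 h, 0 to 4 at 8 h, 0 to 0 at 24 h, 2 to 3 on average and 0 to 1 jointly. No analysis paired by the labels was possible because no replicate number in the labels occurs in more than 1 group. The library set, fitted as a term above, is a grouping seen in the data, not a number in the labels. Low members such as Chac1 rest on few CPM, and with 2 KO libraries at 24 h differences there have the least support.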
